A study of Mus musculus with 48 samples.

Results

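The subtelomeric regions described here are the regions of captured methylated DNA nearest to the distal ends of the 19 mouse autosomes. A region was taken when its end lay within 2 Mb of the largest region end on the same chromosome, which gave 1368 of the 95882 regions in the table. No measured level entered that rule. The 48 libraries came from 12 mice, 7 GermFree (germ-free, kept without microbes) and 5 ConvR (conventionalised) animals, and each animal gave 1 library from each of 4 sections: duodenum, jejunum, ileum, colon. The labels used here name intestine as the tissue, with no strain, age, sex or cell fraction. A methyl-CpG-binding domain pulled down sheared DNA that carries methylated CpG sites, so the count at a region reflects both its methylation and its copy number. In whole tissue, a change in the mix of cells and a change within each cell cannot be told apart.

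Mouse autosomes are telocentric: the centromere sits at the start of each chromosome in the assembly, and the distal end carries the telomere that lies away from it. Subtelomeres are the stretches just inside telomeres, where gene-rich DNA meets duplicated sequence, receptor gene clusters and satellite-like repeats that vary in copy number between genomes. Most CpG sites in somatic cells are methylated, with the exception of CpG islands at many promoters, and genes used only in germ cells are among those whose promoters are often methylated in the body.

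Promoters give a view of a small part of the captured sequence: 44 of the 1368 subtelomeric regions (3.22%) overlapped a promoter window. RefSeq promoter windows (GRCm38.p6, the coordinates of mm10) run from 250 bases before to 50 bases after a gene's start, and 700 of them lay in the distal 2 Mb of the 19 autosomes. Of these, 48 windows of 44 genes overlapped a captured region (6.86%), against 8.57% of all 32851 windows. Captured windows held a median of 6.5 CpG sites, and the 652 windows without a captured region a median of 10. Over the windows of the whole genome these medians were 6 and 7. The telomere hexamer TTAGGG or its reverse complement CCCTAA, searched on both strands, occurred in 10.4% of the subtelomeric windows and in 10.6% of all windows. Windows of 5 genes are printed because the results below name their regions (Cr2 and Mucl2) or because they are dense in CpG or belong to germ cell genes (Tex19.1, Gtsf1 and Tmem267). They were chosen after the values were seen. Each runs 5′ to 3′ on the gene's strand, with every CpG in capitals.
Cr2, chr1:195176670-195176969, minus strand, 14 CpG sites: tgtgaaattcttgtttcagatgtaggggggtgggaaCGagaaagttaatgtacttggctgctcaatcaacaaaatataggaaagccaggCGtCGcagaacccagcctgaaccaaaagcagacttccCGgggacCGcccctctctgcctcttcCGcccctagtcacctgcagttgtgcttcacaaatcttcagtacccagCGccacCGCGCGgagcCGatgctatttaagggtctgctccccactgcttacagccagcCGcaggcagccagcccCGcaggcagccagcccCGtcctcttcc
Mucl2, chr15:103899263-103899562, minus strand, 1 CpG site: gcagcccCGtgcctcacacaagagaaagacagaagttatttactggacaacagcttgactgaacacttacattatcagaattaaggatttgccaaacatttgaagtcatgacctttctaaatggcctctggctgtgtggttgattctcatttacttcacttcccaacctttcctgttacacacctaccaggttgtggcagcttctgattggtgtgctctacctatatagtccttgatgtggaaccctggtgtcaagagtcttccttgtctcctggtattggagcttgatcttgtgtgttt
Tex19.1, chr11:121145893-121146192, plus strand, 16 CpG sites: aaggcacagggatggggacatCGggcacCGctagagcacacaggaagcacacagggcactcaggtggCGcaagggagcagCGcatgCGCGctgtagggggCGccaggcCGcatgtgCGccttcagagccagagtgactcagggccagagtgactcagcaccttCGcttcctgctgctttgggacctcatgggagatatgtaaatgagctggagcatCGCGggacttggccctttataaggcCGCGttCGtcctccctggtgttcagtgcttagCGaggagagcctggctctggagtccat
Gtsf1, chr15:103430378-103430677, minus strand, 13 CpG sites: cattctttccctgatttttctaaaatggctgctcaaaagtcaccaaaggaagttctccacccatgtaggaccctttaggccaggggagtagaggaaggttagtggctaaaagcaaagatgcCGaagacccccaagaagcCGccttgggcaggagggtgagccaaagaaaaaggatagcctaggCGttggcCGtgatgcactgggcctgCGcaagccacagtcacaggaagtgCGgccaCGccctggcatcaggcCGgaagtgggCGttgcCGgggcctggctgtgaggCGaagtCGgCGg
Tmem267, chr13:119488223-119488522, plus strand, 50 CpG sites: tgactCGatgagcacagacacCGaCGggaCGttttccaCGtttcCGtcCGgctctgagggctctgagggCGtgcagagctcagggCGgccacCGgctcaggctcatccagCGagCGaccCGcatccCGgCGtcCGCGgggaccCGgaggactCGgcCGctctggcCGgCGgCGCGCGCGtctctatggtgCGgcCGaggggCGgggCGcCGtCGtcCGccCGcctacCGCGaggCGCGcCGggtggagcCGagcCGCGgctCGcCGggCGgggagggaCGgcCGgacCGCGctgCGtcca

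The printed windows differ widely in CpG content. All of them were picked from windows that overlap a captured region, so that overlap is not a result. Overlap with a wider region does not show where within it the captured DNA lay. Tex19.1, a gene of germ cells and placenta whose promoter is known to be methylated in somatic cells, had its CpG-rich window inside the region chr11:121145796-121146742. Its level in CPM (counts relative to library size, scaled by TMM factors) over the summed sections was 4.9, 5.7 and 7.1 (lowest, median and highest of 7 GermFree mice), and 4.7, 6.5, 6.1, 5.2 and 6.1 in ConvR mice 1 to 5. The groups overlapped (log2 difference -0.003, edgeR adjusted p = 1.0). Gtsf1, which encodes a zinc finger protein of the piRNA pathway in germ cells, had its window under a region of 4.1 CPM, with a log2 difference of -0.11 (edgeR adjusted p = 0.948) between models and -0.02 (0.977) between colon and small intestine. The window at Tmem267, which encodes a transmembrane protein, lies in the region chr13:119487391-119492691, which read 53.7 CPM and differed by -0.003 between models (edgeR adjusted p = 1.0). None of these 3 promoter regions passed in the comparisons just given.

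Subtelomeric regions were unevenly spread over the chromosomes. Chromosome 4 had 181 and chromosome 11 had 169, whereas chromosomes 14 and 17 had 13 each. Per Mb, the distal windows held between 6.5 (chromosome 14) and 90.5 regions (chromosome 4), and 7 of the 19 windows were denser than the rest of their chromosome. The regions were of ordinary size, with a median width of 1071.5 bp against 1208 bp for the other 93167 autosomal regions. Of the 1368, 975 (71.3%) overlapped an annotated gene. In the outermost 0.25 Mb that share was 42.4%, against 70.4% for the other autosomal regions.

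**Figure D1:**
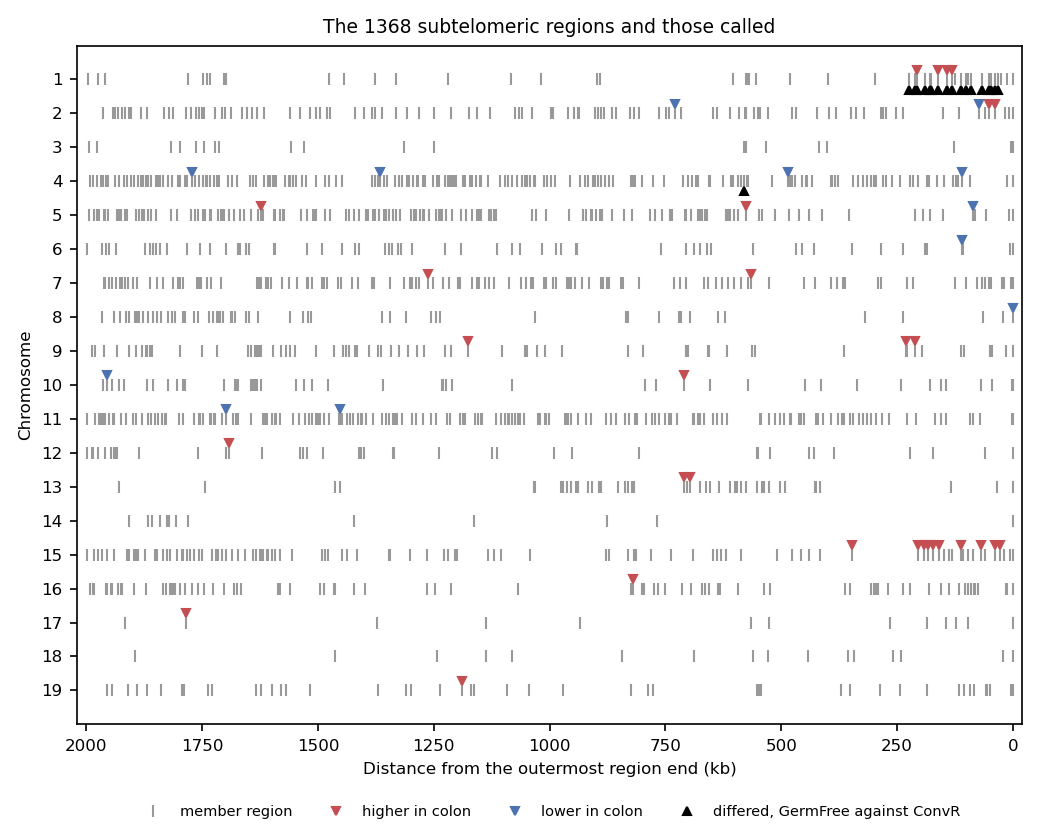
The 1368 subtelomeric regions of the 19 autosomes (grey ticks) by distance in kb from the outermost region end of the same chromosome. Triangles mark regions called at an edgeR adjusted p under 0.05: black for GermFree against ConvR over summed sections (18 regions, 17 of them on chromosome 1), red for higher in colon than in small intestine (30) and blue for lower in colon (12).

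Their levels were close to those elsewhere. Not scaled by width, the median was 6.92 CPM for the subtelomeric regions, which were narrower, and 7.30 CPM for the other autosomal regions. The median subtelomeric region held 6.60 CPM per kb, the other autosomal regions 6.20, and the regions in the 2 Mb next to the centromere 6.64. On 15 of 19 chromosomes the distal median per kb was above that of the rest. In the 48 libraries the subtelomeric regions took between 1.41% and 1.51% of all counts, while being 1.43% of all regions. The mean share was 1.46% in GermFree and 1.45% in ConvR mice. By mouse it ran from 1.45% to 1.48% in GermFree mice and was 1.47%, 1.46%, 1.43%, 1.46% and 1.43% in ConvR mice 1 to 5, so the groups overlapped. Without the regions from Cr2 to the end of chromosome 1 the order of the means turned, to 1.387% in GermFree and 1.399% in ConvR mice, a difference of -0.0124 percentage points in the share of counts in subtelomeric regions. Library totals ran from 1007560 to 3033782 counts, and the median subtelomeric region held between 7 and 21 counts in a library, so single narrow regions were measured with limited precision.

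A few regions stood far above that median. The highest level per kb was at chr13:119595770-119603300 within Tmem267, with 49.95 CPM per kb. It was followed by chr9:124256067-124259246 near Gm39469 (46.9), chr2:181915934-181919154 in the long non-coding RNA gene Gm40034 (39.8), chr1:195240677-195242176 without a gene within 5 kb (36.9) and chr9:123461587-123463839 in Lars2, which encodes a mitochondrial leucyl-tRNA synthetase (30.5). The sources used here do not say how reads that fit several near-identical copies were placed, so levels at duplicated sequence are uncertain.

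GermFree and ConvR mice were compared to ask whether chromosome ends carry different amounts of captured DNA with and without a microbiota. With the 4 sections of each mouse added up, 18 of 1368 subtelomeric regions passed (edgeR, adjusted p under 0.05), 17 of them higher in GermFree mice, against 0.475% of all regions tested and 0.262% of the other autosomal regions. The direction was shared with the whole table, where 413 of 455 called regions were higher in GermFree mice. The whole table includes regions outside the autosomes. Among the other autosomal regions 204 of 244 called were higher. The 17 lay close together at the end of chromosome 1, with 2 regions among them that did not pass. The last 22 regions of that chromosome, from the complement receptor gene Cr2 (chr1:195139473) to the outermost region (chr1:195367125), held all of them, and the 26 subtelomeric regions of chromosome 1 before Cr2 held none. Elsewhere 1 region, at Atad3aos on chromosome 4, passed. The median log2 difference of the 1368 regions was -0.002, against -0.001 over all regions.

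The stretch of called regions on chromosome 1 spanned 196 kb, from Cr2 over the pseudogenes Gm29726 and Vmn2r-ps1 (a relic of a vomeronasal receptor) to position 195335828. Cr2 encodes complement receptor 2, which B cells and follicular dendritic cells use to bind antigen coated with complement. The 17 log2 differences lay close together, between 0.61 and 0.91 with a median of 0.76.
The widest Cr2 region, chr1:195163667-195178371, covers the Cr2 promoter printed above. It read 60.0, 92.3 and 124 CPM (lowest, median and highest) in 7 GermFree mice and 52.8, 57.8, 38.4, 62.5 and 48.3 CPM in ConvR mice 1 to 5. Of the GermFree mice 6 lay above every ConvR mouse and the lowest did not. The mean was 88.3 ± 20.4 CPM (SD, n = 7) against 52.0 ± 9.26 (SD, n = 5), and the log2 difference was 0.76 (edgeR adjusted p = 3.19e-06, SE 0.11).
At the other end of the stretch, the region at Vmn2r-ps1 (chr1:195282566-195300449) read 74.0, 109 and 140 CPM in GermFree mice (lowest, median, highest) and 70.2, 70.0, 50.4, 69.4 and 54.6 CPM in ConvR mice 1 to 5. All 7 GermFree mice lay above all 5 ConvR mice (log2 0.73, SE 0.10; edgeR adjusted p = 9.60e-07). Between the ends, the region of Gm29726 at chr1:195195298-195204834 gave 59.3 ± 13.3 CPM (SD, n = 7) against 34.7 ± 4.25 (SD, n = 5), which is 0.77 on the log2 scale (edgeR adjusted p = 5.76e-07, SE 0.10).

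The stretch had sharp limits and 2 gaps. Whether methylation or the number of copies differs over these 196 kb cannot be told apart from captured DNA. The outermost 3 regions of chromosome 1, from 195340495 outward, had log2 differences of -0.02, -0.03 and -0.002 (edgeR adjusted p = 0.992, 0.985 and 1.0). In the outermost one GermFree mice read 11.6, 11.9 and 12.9 CPM (lowest, median, highest) and ConvR mice 1 to 5 read 10.9, 13.2, 10.6, 14.2 and 11.1, so GermFree mice lay inside the ConvR range. Within the stretch, the region chr1:195240677-195242176, with 36.9 CPM per kb the densest of the 22, had 54.8 ± 3.71 CPM (SD, n = 7 GermFree) against 56.0 ± 7.31 (SD, n = 5 ConvR), a log2 difference of -0.03 (edgeR adjusted p = 0.980). The neighbouring called regions held between 4.72 and 7.03 CPM per kb. A second region inside the stretch, chr1:195268201-195269234, differed by 0.39 on the log2 scale (edgeR adjusted p = 0.431).

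**Figure D2:**
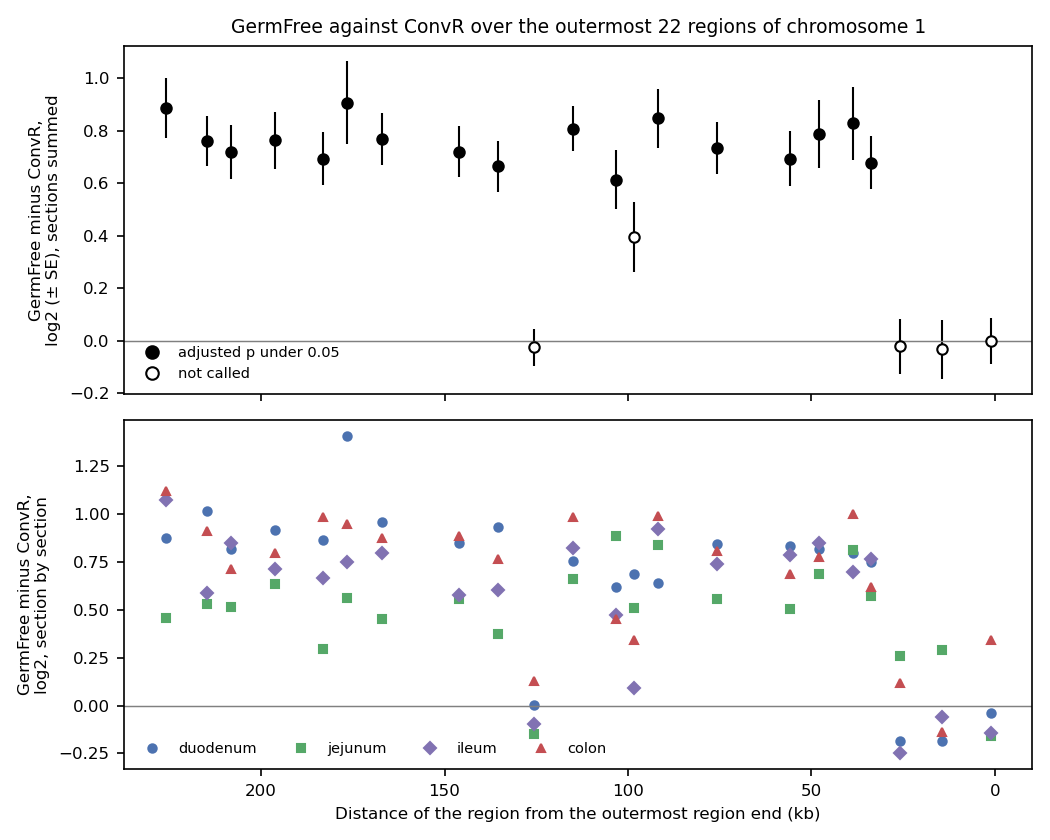
GermFree minus ConvR (log2) for the outermost 22 regions of chromosome 1 by distance in kb from the outermost region end, over summed sections with standard errors (top; filled points passed) and section by section (bottom). The 17 filled points lie between 0.61 and 0.91, whereas the outermost 3 regions and the region of 36.9 CPM per kb lie near 0.

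The same stretch differed in each section. In the duodenum 15 of 1034 subtelomeric regions tested passed (0.463% of all regions), in the jejunum 12 of 1142 (0.343%), in the ileum 13 of 1194 (0.365%) and in the colon 16 of 1034 (0.542%), all of them higher in GermFree mice (edgeR). Calls over all regions leaned the same way, with 319 of 349, 249 of 281, 270 of 312 and 381 of 402 higher, respectively. Of the other autosomal regions tested, 0.256%, 0.151%, 0.182% and 0.289% passed in the same order of sections. Of those calls 157 of 187, 88 of 120, 109 of 151 and 187 of 208 were higher. All but 1 of the subtelomeric calls lay in the stretch, and 8 regions passed in all 4 sections. Of the 22 outermost regions 18 were positive in every section. The widest Cr2 region had log2 differences of 0.92 in the duodenum (SE 0.15), 0.64 in the jejunum (SE 0.10), 0.71 in the ileum (SE 0.14) and 0.79 in the colon (SE 0.13). It passed in each section with edgeR, except without ConvR mouse 5 in the ileum (log2 0.62), and missed the threshold with DESeq2 in the duodenum (adjusted p = 0.0917) and the colon (0.270). In the colon its levels were 54.6, 111 and 138 CPM in GermFree mice (lowest, median, highest) and 62.7, 62.1, 36.1, 70.6 and 66.9 CPM in ConvR mice 1 to 5, where 6 of 7 GermFree mice lay above every ConvR mouse. The jejunum count fell to 7 without ConvR mouse 5, and the ileum count to 8 without ConvR mouse 3 or 5. The 17 calls on summed sections each passed in all 12 fits that left out 1 mouse, and all 17 passed without ConvR mice 1 and 3.

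Whether the difference between models itself varied by section was tested jointly. None of the 1368 subtelomeric regions passed (edgeR; 0.0% of all regions), 55 had an unadjusted p under 0.05 and the smallest adjusted p was 0.986. DESeq2 called none either, with 27 at an unadjusted p under 0.05. With the mouse as a block 1 region passed, at Atad3aos (edgeR adjusted p = 0.0456).

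**Figure D3:**
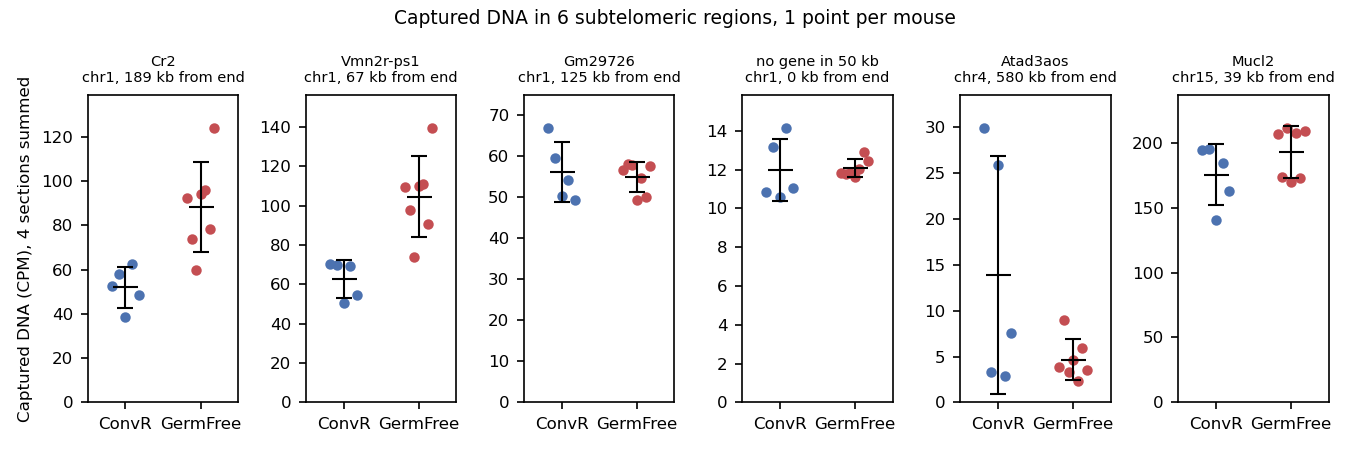
Captured DNA in CPM over the 4 summed sections in 6 subtelomeric regions, with 1 point per mouse, the mean (bar) and SD (whiskers), for 5 ConvR (blue) and 7 GermFree mice (red). GermFree mice are higher at Cr2 and Vmn2r-ps1, at Atad3aos 2 ConvR mice read 29.9 and 25.8 CPM, and the groups overlap in the other 3 regions.

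The other 2 subtelomeric regions that passed lay on chromosomes 4 and 9. Beside Atad3aos, a non-coding gene antisense to the mitochondrial ATPase gene Atad3a (chr4:155763586-155764354), ConvR mice 1 to 5 read 29.9, 3.3, 25.8, 2.9 and 7.6 CPM, and GermFree mice 2.3, 3.9 and 9.0 CPM (lowest, median, highest). ConvR mice 1 and 3 were high and the other 3 lay within the GermFree range. The log2 difference of -1.41 (SE 0.34; edgeR adjusted p = 0.0279) became -0.03 without those 2 mice (adjusted p = 1.0), and the call was also lost without ConvR mouse 1 (-0.99), ConvR mouse 3 (-0.99) or GermFree mouse 1 (-1.37), 3 (-1.35), 5 (-1.29) or 7 (-1.36). In those 2 mice the level was 57.6 and 51.8 CPM in the duodenum and 55.6 and 33.1 CPM in the ileum, but 9.6 and 21.6 CPM in the jejunum and 12.3 and 7.7 CPM in the colon. Near the pseudogene Gm2774 (chr9:123872648-123873458), the duodenum read 13.3, 16.6 and 19.9 CPM in GermFree mice (lowest, median, highest) and 7.3, 11.3, 6.8, 15.9 and 8.0 CPM in ConvR mice 1 to 5, with 5 of 7 GermFree mice above every ConvR mouse (log2 0.67, SE 0.17; edgeR adjusted p = 0.0434). Its log2 difference was -0.12 in the jejunum, 0.24 in the ileum and 0.33 in the colon, none of which passed. It passed in 4 of the 12 fits without 1 mouse, with log2 differences from 0.56 (without ConvR mouse 5) to 0.89 (without ConvR mouse 4), and not in DESeq2 (adjusted p = 0.372). The call ended without ConvR mouse 1, 3 or 5 (0.62, 0.60 and 0.56) and without GermFree mouse 1, 3, 4, 5 or 7 (0.67, 0.66, 0.67, 0.66 and 0.63).

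Colon and small intestine were compared to ask how chromosome ends differ along the gut. Of 1368 subtelomeric regions 30 were higher in colon (2.19%, against 1.79% of all regions) and 12 were lower (0.877%, against 0.607% of all regions; edgeR adjusted p under 0.05). These shares are near those of all regions, while the other autosomal regions gave 1.41% higher and 0.604% lower. The regions in the 2 Mb next to the centromere, at the opposite end, gave 4.73% higher and 0.890% lower of 1460. Each mouse gave every section, and with the mouse as a block 49 subtelomeric regions were higher and 20 lower, with all 42 among them. With library totals in place of TMM factors the split was 23 higher and 17 lower. The count was sensitive to single mice: it was 13 without ConvR mouse 5, 20 without ConvR mouse 4, 21 without GermFree mouse 4, 24 without ConvR mouse 1 and 74 without ConvR mouse 3. All 42 kept their sign in the GermFree mice alone, where 25 of them passed, and in the ConvR mice alone, where none of 1284 passed in edgeR (97 at an unadjusted p under 0.05, smallest adjusted p = 0.271). The 42 were called on these same mice, so the shared sign is not an independent check.

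Within the 2 Mb the calls were not evenly placed. In the outermost 0.25 Mb 17 of 172 regions were higher in colon (9.88%) and 5 were lower (2.91%), whereas the bins from 0.25 to 2 Mb gave between 0.629% and 2.06% higher. In the fits without 1 mouse the outermost bin had between 6 regions higher (3.49%, without ConvR mouse 5) and 28 (16.3%, without ConvR mouse 3), and the 1196 other subtelomeric regions between 4 (0.334%) and 22 (1.84%). Of the 17, 5 passed in all 12 of these fits, and none of those 5 lay on chromosome 1. The 17 came from 4 chromosomes, with 9 on chromosome 15, 4 on chromosome 1 and 2 each on chromosomes 2 and 9. Without chromosome 15 the share was 5.23% (8 of 153), and without chromosomes 1 and 15 it was 3.05% (4 of 131). The median log2 difference of the outermost bin was 0.07, and 0.04 without those 2 chromosomes. Wide regions were called more often, and a wider region holds more counts. Of 74 subtelomeric regions of at least 5 kb 13 were higher in colon (17.6%), against 9.20% of 4760 such regions elsewhere on the autosomes. Most of the 13 were neighbours, at Mucl1 and Mucl2 on chromosome 15 or at Gm29726 on chromosome 1. The share without those chromosomes was not computed.

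**Figure D4:**
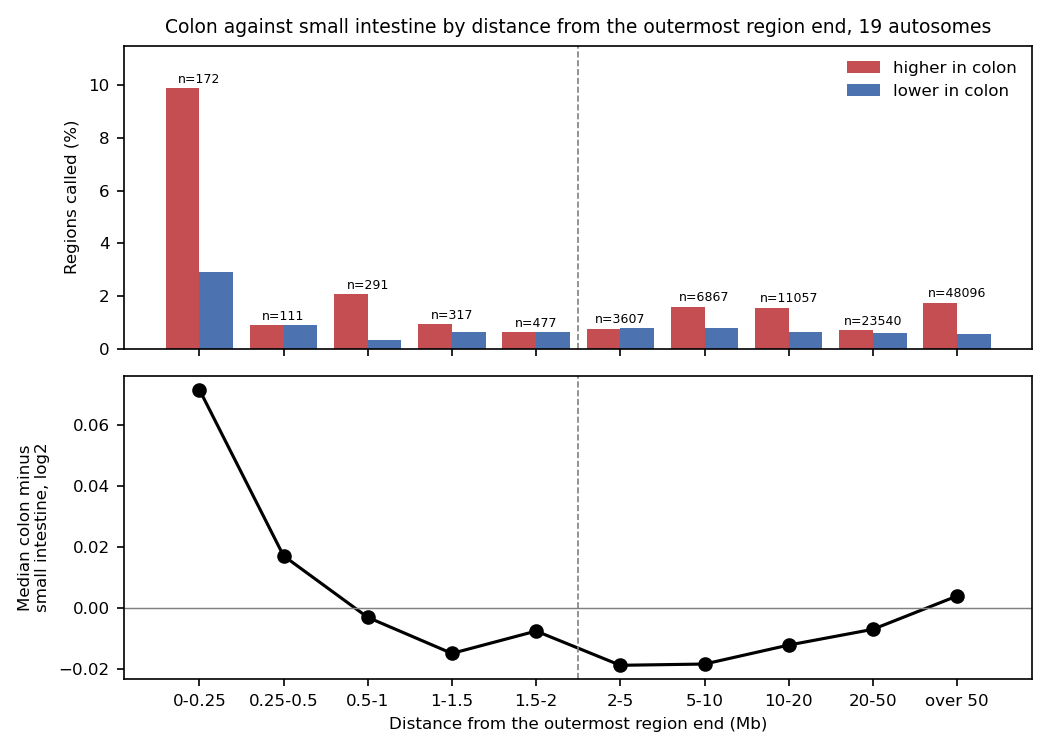
Regions called higher (red) or lower (blue) in colon than in small intestine as a percentage of the regions in each bin of distance from the outermost region end in Mb (top; bins are of unequal width), and the median log2 difference of each bin (bottom). The dashed line marks the 2 Mb border; the outermost bin has 9.88% higher and a median of 0.07.

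The end of chromosome 15 held the most regions higher in colon. Of its 9, the nearest gene was Mucl1 for 5, Mucl2 for 3 and the predicted gene Gm21178 for 1, and the Mucl genes are named for mucin-like proteins. The widest subtelomeric region of all, chr15:103880182-103900315, covers the Mucl2 promoter printed above, which has a single CpG. Its level over 12 mice was 140, 223 and 264 CPM in colon (lowest, median, highest) and 140, 182 and 206 CPM in the small intestine, and colon was above the same mouse's small intestine in 12 of 12 mice. The log2 difference was 0.27 (SE 0.07; edgeR adjusted p = 0.0174), but leaving out ConvR mouse 4 (0.24) or 5 (0.25) or GermFree mouse 4 (0.22) ended the call. Nearer to the pseudogene Mucl1, the region chr15:103760696-103766918 read 34.8, 52.0 and 72.6 CPM in colon and 31.0, 41.4 and 50.3 CPM in the small intestine, again with 12 of 12 mice higher in colon (log2 0.35, SE 0.07; edgeR adjusted p = 0.00224). It passed in all 12 fits without 1 mouse. The chromosome 15 regions did not pass between models: the widest read 193 ± 19.8 CPM (SD) in 7 GermFree mice against 176 ± 23.4 (SD) in 5 ConvR mice (log2 0.14; edgeR adjusted p = 0.820).

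For regions above 20 CPM per kb, a limit set after the values were seen, no share over all regions was computed. Of the 7 subtelomeric ones, 4 rose in colon, neighbours at Tmem267 among them. Those that did not were chr1:195240677-195242176 (log2 0.15; edgeR adjusted p = 0.254), the Lars2 region (0.04; 0.855) and chr13:119608588-119611290 near Tmem267 (-0.02; 0.908). Near the predicted gene Gm39469 on chromosome 9, chr9:124256067-124259246 read 128, 183 and 204 CPM in colon (lowest, median, highest) and 111, 149 and 163 CPM in the small intestine. Colon was higher in 12 of 12 mice, and 10 colon libraries lay above the small-intestinal mean of every mouse (log2 0.33, SE 0.07; edgeR adjusted p = 0.00290). The neighbour chr9:124268643-124279985, inside Gm39469 and of ordinary density (7.19 CPM per kb), gave 99.9 ± 18.8 CPM in colon and 76.9 ± 13.2 in the small intestine (SD, n = 12; log2 0.37, SE 0.08; edgeR adjusted p = 0.00232). On chromosome 2, 38 kb from the end, chr2:181926868-181933008 read 81.2, 134 and 147 CPM in colon and 85.8, 104 and 124 CPM in the small intestine, higher in 11 of 12 mice (log2 0.32, SE 0.07; edgeR adjusted p = 0.00232). These 3 regions passed in all 12 fits without 1 mouse. The denser region in Gm40034 (chr2:181915934-181919154) rose by 0.27 (edgeR adjusted p = 0.0105), and its call ended without ConvR mouse 4 (0.22) or 5 (0.26).

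On chromosome 13, 0.7 Mb from the end, the densest subtelomeric region rose by less. The region within Tmem267 (chr13:119595770-119603300) read 335, 437 and 490 CPM in colon (lowest, median, highest) and 302, 379 and 402 CPM in the small intestine, and was higher in colon in 12 of 12 mice (log2 0.24, SE 0.07; edgeR adjusted p = 0.0408). It passed in 2 of the 12 fits without 1 mouse, those without ConvR mouse 3 and GermFree mouse 3, with log2 differences between 0.21 and 0.25 over the 12, and it passed with the mouse as a block (adjusted p = 0.00146). The region beside it (chr13:119613205-119617666) gave 127 ± 18.98 CPM in colon and 102 ± 11.2 in the small intestine (SD, n = 12; log2 0.31, SE 0.07; edgeR adjusted p = 0.00297) and passed in all 12. The region over the CpG-rich Tmem267 promoter printed above did not pass, with 52.5 ± 6.25 CPM in colon and 53.9 ± 2.67 in the small intestine (SD, n = 12; log2 -0.04; edgeR adjusted p = 0.848). A short region in the non-coding gene D930030F02Rik (chr7:144762338-144763124) rose by 0.63 on the log2 scale (edgeR adjusted p = 0.00493, SE 0.14), higher in colon in 10 of 12 mice.

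**Figure D5:**
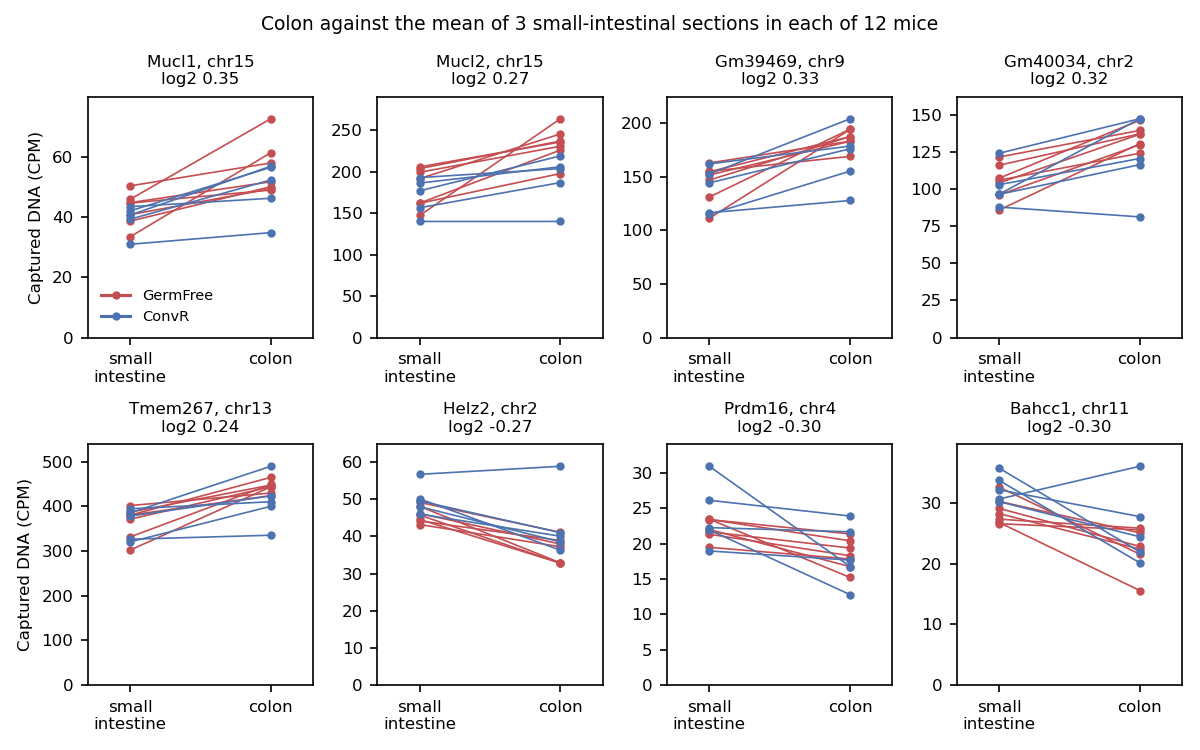
Captured DNA in CPM in the colon and as the mean of the duodenum, jejunum and ileum of the same mouse, with 1 line per mouse (7 GermFree red, 5 ConvR blue), for 5 subtelomeric regions higher in colon and 3 lower. At Mucl1, Mucl2, Gm39469 and Tmem267 12 of 12 lines rise, and at Prdm16 12 of 12 fall.

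Of the 12 regions lower in colon, 10 overlapped a gene and the median width was 2207.5 bp, against 10 of 30 and 4223.5 bp among the higher ones. Among all 1368 subtelomeric regions 71.3% overlapped a gene and the median width was 1071.5 bp, so the lower ones were near the overall share in genes and both sets were wider than usual. None of the 12 passed in all 12 fits without 1 mouse, and 7 of the 30 higher ones did. Regions called elsewhere on the autosomes differed in the same direction, with 77.1% of the lower and 61.2% of the higher ones in genes. Prdm16, which encodes a transcription factor of brown fat and stem cells, had a region (chr4:154567946-154572369) at 12.8, 18.1 and 23.9 CPM in colon and 18.96, 22.1 and 30.9 CPM in the small intestine (lowest, median, highest). Colon was lower in all 12 mice (log2 -0.30, SE 0.08; edgeR adjusted p = 0.0264), but the region did not pass without ConvR mouse 3 (-0.23) or 4 (-0.27) or GermFree mouse 4 (-0.27). Helz2, which encodes a helicase that acts as a nuclear receptor coactivator (chr2:181232284-181241081), gave 39.0 ± 6.95 CPM in colon and 47.6 ± 3.62 in the small intestine (SD, n = 12; log2 -0.27, SE 0.07; edgeR adjusted p = 0.00946) and was higher in colon in 1 mouse. It did not pass without ConvR mouse 5 (-0.24). Bahcc1, which encodes a chromatin protein with a BAH domain (chr11:120271276-120276902), gave 24.1 ± 4.93 against 30.3 ± 2.88 CPM (SD, n = 12; log2 -0.30, SE 0.07; edgeR adjusted p = 0.00994), and did not pass without ConvR mouse 1 (-0.26) or 4 (-0.26).

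Among the 12 called, the largest decreases were at short regions near 3 chromosome ends. The outermost region of chromosome 8, in Gm32856 (chr8:129267356-129268131), read 1.9, 2.8 and 7.3 CPM in colon and 5.5, 6.6 and 7.8 CPM in the small intestine (lowest, median, highest), lower in colon in all but 2 mice (log2 -0.72, SE 0.17; edgeR adjusted p = 0.00632). It was the only 1 of the 19 outermost regions called in this comparison. A region beside the pseudogene Vmn2r-ps28 on chromosome 5 fell by 0.69 on the log2 scale (SE 0.18; edgeR adjusted p = 0.0152) and the pseudogene Gm15784 on chromosome 6 by 0.68 (SE 0.16; edgeR adjusted p = 0.00875). Each of these fell out of the called set when ConvR mouse 5 (Gm32856 at -0.58 and Gm15784 at -0.61), or ConvR mouse 2 or 4 (Vmn2r-ps28 at -0.61 and -0.64), was left out. Their mean levels were 5.92 CPM (Gm32856), 5.59 (Gm15784) and 4.82 (Vmn2r-ps28), so each rests on few reads per library.

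Ileum and duodenum, the only 2 sections of the small intestine compared with each other, had no subtelomeric region that passed. Ileum against duodenum gave 0 of 1368 in edgeR (0.00209% of all regions), with 75 at an unadjusted p under 0.05 and a smallest adjusted p of 0.578, and DESeq2 gave 0 with 42 at an unadjusted p under 0.05. The median log2 difference was 0.02 over the subtelomeric regions and 0.002 over all regions.

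Gene lists at chromosome ends were small, and 0.475% of all regions passed between models and 2.39% between colon and small intestine, so few calls or none in a list are near the background. Among complement receptors and regulators, 2 of 11 genes (Cd46 and Cr2) had subtelomeric regions, 6 in all, of which the 5 of Cr2 were higher in GermFree mice and 1, at Cr2 (chr1:195156822-195161008), was also higher in colon (log2 0.41; edgeR adjusted p = 0.00769; not passed without ConvR mouse 1, at 0.37, or 5, at 0.38). Cr2 is also 1 of the 6 B cell markers: their 24 regions held 5 higher ones in GermFree mice, all at Cr2, and none at the other 5 genes, while the 11 regions of 6 T and NK cell markers held none. The 25 regions of 8 epithelial markers, of which 1 at Krt8 was subtelomeric, the 16 of 5 smooth muscle markers and the 17 of 4 markers of enteric neurons and glia held none between models either. Captured DNA at a marker gene is not its expression, and the part of B cells in the Cr2 result was not tested. Another list held 11 genes at the end of chromosome 7, among them Ccnd1, which encodes cyclin D1, Fgf15, Ano1 and Cttn. Not all of them are genes of growth control: Dhcr7 and Shank2, for example, are also in the metabolism and neuronal lists below. Their 70 regions held 0 calls between models and 1 between colon and small intestine. That call was at the synaptic scaffold gene Shank2 (log2 0.45, edgeR adjusted p = 0.0380). The Shank2 call passed in 5 of the 12 fits without 1 mouse and ended without ConvR mouse 1 (0.43), 2 (0.42), 4 (0.42) or 5 (0.47) or GermFree mouse 1 (0.39), 4 (0.44) or 7 (0.37). At Ccnd1 (chr7:144930104-144934334) the means were 19.4 ± 1.46 CPM (SD, n = 7 GermFree) and 19.3 ± 1.36 (SD, n = 5 ConvR; log2 0.003; edgeR adjusted p = 1.0).

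The other lists gave counts near the same background. The 32 regions at 11 genes of lipid and intermediary metabolism held none in either comparison: Fasn, which encodes fatty acid synthase (chr11:120806932-120815708), had 46.7 ± 3.98 CPM (SD, n = 7 GermFree) against 52.5 ± 2.82 (SD, n = 5 ConvR), a log2 difference of -0.17 (edgeR adjusted p = 0.597). The 21 regions at 8 developmental transcription factor genes held 1 call, at Sp4 in colon (log2 0.37; edgeR adjusted p = 0.0387, passed in 4 of the 12 fits without 1 mouse). The 66 regions at 10 neuronal genes held the Shank2 call alone. The neuronal gene Agrn, which encodes agrin, read 67.5 ± 3.33 CPM (SD, n = 7 GermFree) against 76.1 ± 6.71 (SD, n = 5 ConvR), a log2 difference of -0.18 (edgeR adjusted p = 0.568). The 7 regions at interferon-stimulated and TNF receptor genes (Isg15, Mx1, Mx2, Tnfrsf4 and Tnfrsf18) and the 3 at Rtel1, a helicase gene of telomere maintenance, held none between models or between colon and small intestine.

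The regions just inside the border of 2 Mb, at Krt79 on chromosome 15 and Baiap2 on chromosome 11, had log2 differences between models of 0.005 and 0.006, and the regions just outside, at B3glct on chromosome 5 and Dnah11 on chromosome 12, of 0.06 and 0.03.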

How the data were processed

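Methylated DNA was captured with MethylMiner from intestinal sections of 12 mice (48 libraries) and read single-end, per the labels' protocols. The submitters' processing notes name Trim Galore 0.3.7, cutadapt 1.4.2, MACS2, featureCounts and mm10. The sources used here do not say which aligner was used, how duplicates and ambiguous reads were handled, or whether peaks were called on pooled libraries. The deposited table gives a whole-number count per region, not normalised, and the deposited peak list gives positions and the authors' score, used as a filter in 1 alternative. All region names carry the GermFree label.

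Regions were given gene names from a RefSeq table (GRCm38.p6, without strand or exons) by overlap, or else by the nearest gene within 50 kb. All regions entered each fit (edgeR 4.0.16, R 4.3.3; TMM; low counts removed by the default filter; quasi-likelihood F-test; Benjamini-Hochberg adjustment; threshold 0.05), and the subtelomeric ones were then counted. Fits used mouse sums, the 12 libraries of 1 section, or 48 libraries in 8 groups. SE is the log2 difference divided by the square root of F. In simulated counts, 53% of regions changed by log2 0.5 and 98% of those changed by log2 1 were recovered for mouse sums over 95882 regions, and 64% and 98% for colon over 95807. The simulation set the coefficient of variation at 0.1, left the regions of lowest counts unchanged and drew all libraries independently. Its shares hold for those settings and do not give the power in the real data.

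Sections of 1 mouse share the animal, per the labels. Their deviations correlated with a median r of 0.034 (72 pairs), and same-numbered mice of the 2 models, which are different animals, with -0.011 (20 pairs). In the fits on mouse sums and on 1 section, p-values measure the spread between the mice. In the fits of 48 libraries in 8 groups they measure the spread between libraries within a group. Those fits treat the sections of 1 mouse as independent, except where the mouse was a block.

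Alternatives were DESeq2 1.42.0, other scalings and filters, blocks, 1 model alone, other windows and left-out mice. Leaving out the end of chromosome 1 was added after the data were seen. The regions, gene lists and the choice of ConvR mice 1 and 3 were made with earlier results of these data known. Named regions are those called with the largest difference (1 per gene), the outermost, densest and widest, and those of the lists, of which 1 is not reported here. Figures and tables used Matplotlib 3.10.9, Python 3.11.15, NumPy 2.4.6, pandas 2.3.3 and data.table (1.17.8).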

Additional observations from a re-analysis of the deposited data

Results flagged for a closer look

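In 86 groups of mice whose summed levels were examined, 2 had a single mouse far from the others; chance gives about 1 in 20. At Mucl1 (chr15:103760696-103766918) ConvR mouse 3 read 32.5 CPM, with the next lowest ConvR mouse at 42.02. At Ccnd1 (chr7:144930104-144934334) GermFree mouse 5 read 22.3 CPM, with the next highest GermFree mouse at 19.7.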

How the results depend on the processing

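The 17 calls at the end of chromosome 1 on summed sections passed in each of the 12 fits without 1 mouse, where the count of subtelomeric calls was 17 to 19; DESeq2 called 15 of the 17. Keeping regions of at least the median score left 7 calls on summed sections, 6 in duodenum, 5 in jejunum, 3 in ileum and 6 in colon. Leaving out regions within 100 kb of Cr2 left 5, 3, 3, 3 and 4, and leaving out Cr2 to the end of the chromosome left 1, 1, 0, 0 and 0. DESeq2 gave 8 in duodenum, 5 in jejunum, 8 in ileum and 8 in colon. Same-numbered mice of the 2 models are different animals. A replicate block by number, run without GermFree mice 6 and 7, gave 7 in jejunum and 7 in ileum and 18 on sums. A block by the code in the sample titles gave 9 in duodenum and 6 in jejunum. Without ConvR mice 1 and 3 jejunum had 7 and ileum 8, and without single mice jejunum had 7 to 13 and ileum 8 to 14. Colon against small intestine gave 26 by DESeq2, 69 with the mouse block, 0 in ConvR mice alone and 13 to 74 without single mice. The model-by-section comparison gave 1 with the mouse block. The GermFree minus ConvR difference in the share of counts in subtelomeric regions, 0.0147 percentage points, was 0.0323 in a 1 Mb window, -0.0621 in a 5 Mb window and -0.0124 without Cr2 to the end of chromosome 1. The score filter and left-out regions test fewer regions, and the block by number and the fits with mice left out use fewer mice. The cause of the other changes was not tested. Other scalings shifted the median of all regions by at most 0.0324 (log2).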

Other observations

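At the other end of the chromosomes, the 1460 regions within 2 Mb of the centromere-side limit of each autosome had 13 regions called between models on summed sections (0.890%), with more captured DNA from GermFree mice at 8 and less at 5. Of the 48 subtelomeric promoter windows under captured DNA, 17 held 10 or more CpG sites, which is 4.80% of the 354 such windows in the distal 2 Mb, against 3.88% of 14281 such windows in the genome. Windows of 5 to 9 CpG sites were under captured DNA in 13.5% of 111 cases at chromosome ends and in 22.4% of 6074 cases in all.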
